A study of Mus musculus with 577 samples.

Results

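Noncoding genes and pseudogenes were compared between single oocytes and single granulosa cells of the mouse ovary, in libraries of transcript 3′ ends. They were taken as every row of the deposited count table whose gene ID is absent from the protein-coding rows of the table of mouse embryonic stem cells, which gave 23845 of 45905 rows. Of these, 16457 had a read in at least 1 of the 54 cells compared and 7388 had none. By gene ID, 23358 rows matched the GENCODE M21 annotation of GRCm38, and 122 of those are annotated as protein-coding there, so that the rows are noncoding by the rule and not in every case by annotation.

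All 54 cells came from ovarian tissue of female mice 8 weeks old. The study states in its results that the amplification methods it compared used sections from the same ovary, and the labels do not give the ovary of each cell. The tissue was snap-frozen, embedded in polyvinyl alcohol, cut at 15 μm, fixed and stained in alcohol, and dissected cell by cell with laser capture microdissection. Their RNA was released with DRaqL, in which sodium deoxycholate lyses the fixed cell and is then quenched with Triton X-100. The labels divide the cells into 15 oocytes, of which 6 were from primary follicles and 9 from secondary-to-antral follicles, and 39 granulosa cells, of which 20 were neighboring and 19 non-neighboring to the oocyte. DRaqL-SMART-Seq v4 is the name used here for the libraries made with DRaqL and the SMART-Seq v4 kit. A pair of further sets from the 577 samples of the series was used beside them. The first was made with the same kit without DRaqL and held 18 oocytes and 34 granulosa cells. The second was made by DRaqL-Protease-Smart-seq2 from sections fixed in formalin for 24 h and held 12 oocytes and 24 granulosa cells. A library holds the captured section of a single cell, and the labels name no mouse. Each group therefore counts as 1 sample, SDs are spreads over cells and no test between groups was made.

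Long noncoding RNAs are transcribed and often spliced and polyadenylated like mRNAs, but are not known to be translated. Some act in the nucleus, as Xist does in coating the inactive X chromosome and as Kcnq1ot1 and Airn do in silencing imprinted neighbors from the paternal allele. Malat1 lies in nuclear speckles, and Meg3 is expressed from the maternal allele of an imprinted cluster. Processed pseudogenes are copies of mRNAs that were reverse transcribed into the genome, and their near-identity to a parent gene makes their reads hard to separate from those of the parent. A growing oocyte stores transcripts for the early embryo, whereas the granulosa cells around it nourish it and make steroid hormones.

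The promoters of some members named below are shown here at their annotated start sites. The libraries read transcript 3′ ends, so the use of these start sites was not measured. Each sequence runs 5′ to 3′ on the strand of the gene, from 250 bases before its start to 50 bases from the start on, and was read from RefSeq on GRCm38.p6, and capitals mark a TATAAA box on either strand. Arhgap20os, AY512915, Foxl2os, Kcnq1ot1, Meg3 and Malat1 lie on the strands -, -, -, -, + and -.
Arhgap20os, chr9:51875836-51876135: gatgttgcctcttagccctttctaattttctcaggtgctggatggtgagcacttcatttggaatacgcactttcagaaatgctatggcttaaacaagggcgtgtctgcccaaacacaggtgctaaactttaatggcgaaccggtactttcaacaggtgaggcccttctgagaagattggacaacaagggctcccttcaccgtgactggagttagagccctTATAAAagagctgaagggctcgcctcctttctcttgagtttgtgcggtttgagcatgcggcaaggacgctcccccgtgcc
AY512915, chr6:95333944-95334243: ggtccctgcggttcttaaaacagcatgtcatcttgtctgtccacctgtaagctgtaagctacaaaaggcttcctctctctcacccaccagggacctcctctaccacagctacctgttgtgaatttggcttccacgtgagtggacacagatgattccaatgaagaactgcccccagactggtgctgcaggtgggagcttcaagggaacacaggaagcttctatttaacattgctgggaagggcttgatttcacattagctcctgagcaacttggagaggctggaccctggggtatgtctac
Foxl2os, chr9:98955261-98955560: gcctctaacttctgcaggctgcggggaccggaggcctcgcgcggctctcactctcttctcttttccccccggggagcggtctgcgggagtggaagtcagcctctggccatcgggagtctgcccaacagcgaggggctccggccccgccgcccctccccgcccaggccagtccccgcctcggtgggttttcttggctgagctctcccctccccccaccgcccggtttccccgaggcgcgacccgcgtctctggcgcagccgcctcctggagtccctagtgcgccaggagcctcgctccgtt
Kcnq1ot1, chr7:143296498-143296797: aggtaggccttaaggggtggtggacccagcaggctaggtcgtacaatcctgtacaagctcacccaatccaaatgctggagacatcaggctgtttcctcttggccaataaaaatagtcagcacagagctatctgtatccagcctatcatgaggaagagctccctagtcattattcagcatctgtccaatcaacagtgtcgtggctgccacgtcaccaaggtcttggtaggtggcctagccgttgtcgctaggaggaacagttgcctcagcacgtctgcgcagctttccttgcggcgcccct
Meg3, chr12:109540746-109541045: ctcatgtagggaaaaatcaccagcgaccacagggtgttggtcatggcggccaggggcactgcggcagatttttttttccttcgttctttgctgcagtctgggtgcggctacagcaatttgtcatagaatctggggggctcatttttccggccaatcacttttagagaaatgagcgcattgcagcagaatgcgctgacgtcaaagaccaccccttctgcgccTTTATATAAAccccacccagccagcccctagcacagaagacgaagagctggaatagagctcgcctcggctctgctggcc
Malat1, chr19:5802623-5802922: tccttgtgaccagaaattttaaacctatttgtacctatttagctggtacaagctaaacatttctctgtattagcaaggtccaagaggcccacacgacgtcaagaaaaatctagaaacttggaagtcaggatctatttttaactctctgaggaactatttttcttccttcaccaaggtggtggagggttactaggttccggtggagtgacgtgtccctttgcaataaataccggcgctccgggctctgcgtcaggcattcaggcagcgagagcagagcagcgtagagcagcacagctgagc

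The Foxl2os window held 28 CpG dinucleotides, the most of the 6, and that of AY512915 held 2, the fewest. A TATAAA box was found in Arhgap20os and, on both strands, in Meg3. Over all 27025 RefSeq promoters of this length, 14.2% held this box on either strand. The share was 13% among the 154 matched promoters of members higher in oocytes and 20.7% among the 29 of members higher in granulosa cells, as defined below, against 12.9% among the 1151 of all members above the level filter. The motif TAATTG was found in 7.14%, 3.45%, 7.3% and 8.15% of the promoters of members higher in oocytes, of members higher in granulosa cells, of all members above the filter and of all genes. For GTAAACA the shares were 1.3%, 0%, 3.74% and 3.55%, for AGGTCA 14.3%, 17.2%, 15.2% and 16%, and for AGATAA 10.4%, 6.9%, 9.38% and 11.4%. These are counts of letters on both strands and not of bound sites, and few members had a promoter in the table.

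The oocyte libraries held between 133799 and 3278505 reads on protein-coding rows, with a median of 902898, and the granulosa cell libraries held between 198750 and 1462136, with a median of 533447. No pair of libraries was identical. The cells carried the markers of their labels. Over 14 oocyte genes such as Zp3 and Gdf9, the summed level ranged from 5779 to 37004 RPM (reads scaled to each library's protein-coding total) in oocytes and from 6.15 to 3971 RPM in granulosa cells. Over 12 granulosa genes such as Foxl2 and Amh, it ranged from 1102 to 12867 RPM in granulosa cells and from 128 to 1300 RPM in oocytes. None of the listed markers was at 0 in all cells of a group. Summed theca and interstitial markers reached 6665 RPM in 1 granulosa cell with a median of 38.4 RPM, blood markers had a median of 0 RPM in both groups, endothelial markers a median of 48.6 RPM and luteal markers a median of 0 RPM in granulosa cells. In 5 of the 39 granulosa cells, all neighboring, oocyte markers reached 10% of the median oocyte's level. Library pools, the S numbers of the sample names, were not shared between cell types. Pool 7 held the 9 secondary-to-antral oocytes, pool 8 the 6 primary follicle oocytes and pools 9 to 12 the granulosa cells, so that cell type, follicle stage and pool cannot be told apart.

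Noncoding rows took a smaller share of the reads in oocytes of secondary-to-antral follicles than in any granulosa cell. The share over the 15 oocytes ranged from 18.4% to 31.1% with a median of 21.2% and a mean of 23.9% ± 4.64 (SD, n = 15). In granulosa cells it ranged from 27.3% to 36% with a median of 31.6% and a mean of 31.7% ± 1.89 (SD, n = 39). The 2 groups overlapped through the primary follicle oocytes only. Those lay between 27.2% and 31.1%, within the span of the granulosa cells except for the lowest, whereas the secondary-to-antral oocytes lay between 18.4% and 23%. Neighboring granulosa cells averaged 30.8% ± 1.79 (SD, n = 20) and non-neighboring cells 32.6% ± 1.57 (SD, n = 19), and their ranges overlapped. The order of primary oocytes, secondary-to-antral oocytes and granulosa cells was the same without DRaqL, with medians of 27.1%, 20.8% and 29.5%. In formalin-fixed sections the medians were 22.6%, 19.4% and 25.1%, and all groups overlapped.

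**Figure D1:**
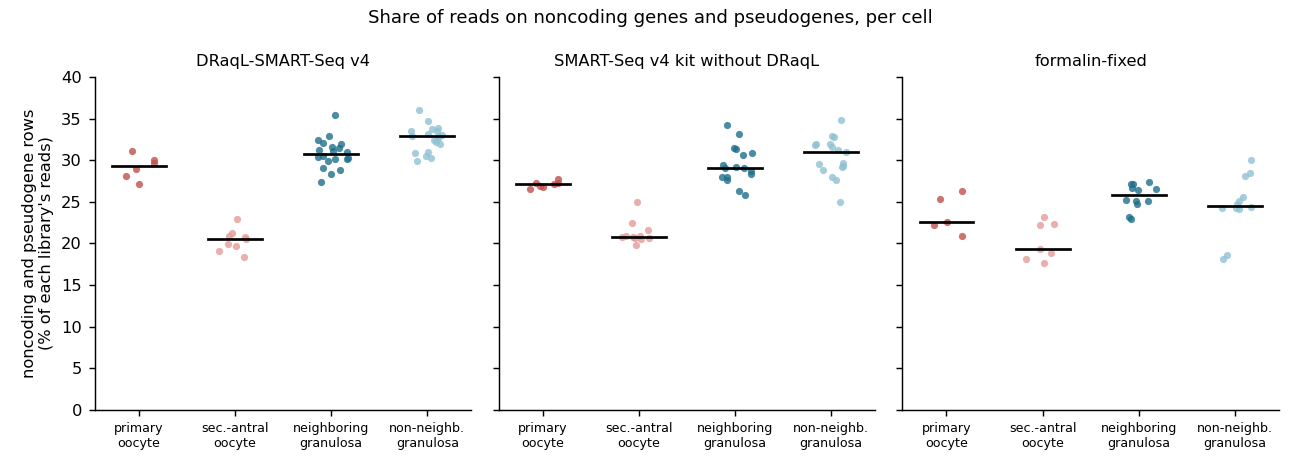
Share of each library's reads on noncoding and pseudogene rows (percent, vertical axis) in primary follicle oocytes, secondary-to-antral oocytes, and neighboring and non-neighboring granulosa cells, for the DRaqL-SMART-Seq v4, the kit without DRaqL and the formalin-fixed libraries. Each point is 1 cell and each bar a median. In the DRaqL-SMART-Seq v4 libraries the secondary-to-antral oocytes, at 18.4% to 23%, all sit below the 39 granulosa cells.

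Most of this difference lay in pseudogenes of ribosomal proteins, the structural proteins of the ribosome. Among processed pseudogenes with a parent found by sequence, 776 rows had a ribosomal protein gene as parent. Together they took 3.17% to 9.90% of the reads in oocytes, with a median of 4.95%, and 7.79% to 15.9% in granulosa cells, with a median of 11.3%. The median was 9.20% in primary follicle oocytes and 3.94% in secondary-to-antral oocytes, and no cell of the latter group reached the lowest granulosa cell. The protein-coding ribosomal protein genes followed the same order, with medians of 4.57% of protein-coding reads in oocytes and 12.7% in granulosa cells, and of 10.3% and 3.65% in the oocytes of the earlier and the later follicles. The other 1747 processed pseudogenes with a parent took similar shares, with medians of 5.96% in oocytes and 5.66% in granulosa cells. With the ribosomal protein pseudogenes left out, the remaining noncoding rows still took 15.2% to 17.8% of the reads in secondary-to-antral oocytes, below the 18.8% to 23% of granulosa cells, whereas primary follicle oocytes lay between 19.0% and 21.5%.

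By gene type, lincRNAs took a median of 3.07% of the reads in oocytes and 2.62% in granulosa cells. miRNA rows took 1.82% and 2.80%, snoRNA and scaRNA rows 1.59% and 2.26%, and mitochondrial rRNA 0.77% and 1.81%. The oocyte medians differed by stage. For lincRNAs they were 3.60% in primary and 2.57% in secondary-to-antral oocytes, the latter close to the granulosa cells. A large part of the lincRNA reads fell on 1 row, Yam1, which RefSeq lists under an 18S rRNA entry. Its summed reads came to 20851 RPM in oocytes and 16548 RPM in granulosa cells, and its mean log2 (RPM+1) was 14.89 in primary and 13.60 in secondary-to-antral oocytes. The lincRNA shares are thus not those of long noncoding RNAs alone. In the same order they were 2.49% and 1.76% for miRNA rows, 1.72% and 1.42% for snoRNA and scaRNA rows, and 1.69% and 0.70% for mitochondrial rRNA. The kit primes on poly(A), so that miRNA and snoRNA rows do not measure the mature small RNAs here.

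More noncoding rows were detected per oocyte than per granulosa cell, although the granulosa cells gave them a larger share of reads. Oocytes had between 3175 and 8115 rows with at least 1 read, with a median of 5040, and granulosa cells between 2018 and 5230, with a median of 3594. After each library was thinned to 168370 reads, the depth of the shallowest, the medians were 3175 and 2573 rows, with ranges of 2487 to 3644 and 1737 to 2946. The groups overlapped before and after thinning.

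Levels were compared as log2 (RPM+1), and a row was counted as past the fold where the group means differed by more than 1.8 on this scale and at least 1 cell was above 4. The level filter was passed by 8346 noncoding rows, 3896 of them through granulosa cells only and 858 through oocytes only. Of these rows, 919 (11%) were higher in oocytes and 295 (3.53%) were higher in granulosa cells. Among the 16033 protein-coding rows above the filter, 27% and 3.51% were past the fold in the same directions, and among all rows 21.5% and 3.52%. At this filter the noncoding share in the oocyte direction was below that of the coding rows, and the share in the granulosa direction was close to it. Both shares depend on the filter, which many rows of low mean pass through single cells. With a mean of at least 4 required in a group, 393 and 237 of 1813 noncoding rows were past the fold. The coding rows are not given at that filter, so no result about noncoding rows as a class is drawn. A ratio of summed reads in place of the difference of mean log2 values gave 909 and 1286 rows, so that the split of calls, 75.7% of which were higher in oocytes, became 41.4%. Scaling to ERCC spike-in reads, which gives a level per captured section, gave 4906 and 16 rows, with 99.7% higher in oocytes. Oocyte sections held a median of 32.1 protein-coding reads per spike-in read and granulosa cell sections a median of 2.88.

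Some types differed in the share past the fold from all noncoding rows above the filter, at 11% and 3.53%. lincRNAs had 188 of 1242 rows (15.1%) higher in oocytes and 24 (1.93%) higher in granulosa cells. Antisense transcripts had 90 (11%) and 12 (1.47%) of 816. Processed pseudogenes had the most rows in both directions, with 303 (10.5%) and 166 (5.78%) of 2874. Of the miRNA rows, 66 (12.6%) and 29 (5.56%) of 522 were past the fold. Of the snoRNA and scaRNA rows, 25 (6.14%) and 17 (4.18%) of 407 were. Immunoglobulin and T cell receptor segments had 13 of 70 rows (18.6%) higher in oocytes and 0 higher in granulosa cells. In the oocyte direction, antisense transcripts, processed pseudogenes and miRNA rows thus lay near the share of all noncoding rows.

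**Figure D2:**
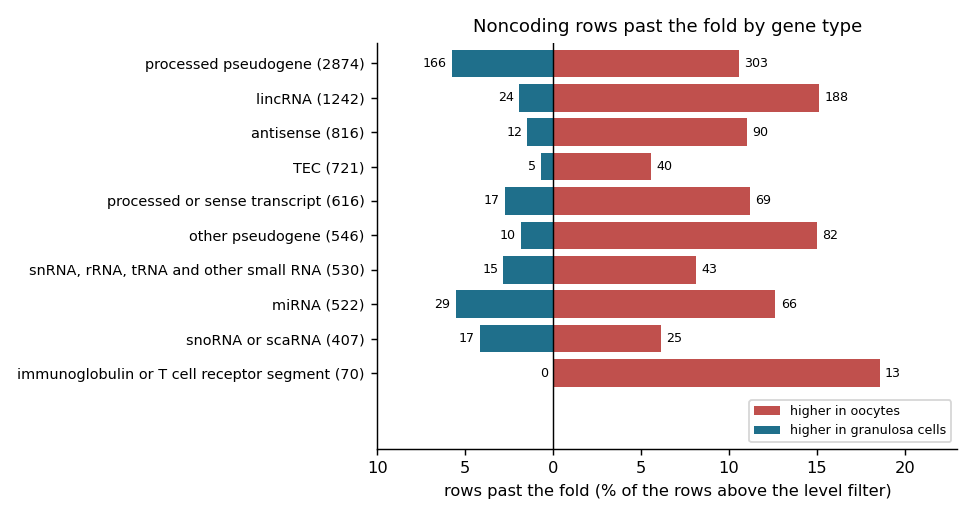
Noncoding rows past the fold (more than 1.8 between group means of log2 (RPM+1)) by gene type, as a percentage of the rows of that type above the level filter (horizontal axis; number above the filter in brackets), to the right where higher in the 15 oocytes and to the left where higher in the 39 granulosa cells. Numbers at the bars are rows. The bars in the granulosa direction are longest for processed pseudogenes, with 166 rows, and miRNA rows, with 29.

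The markers Malat1 and Meg3 were both lower in oocytes on this scale. Malat1 (ENSMUSG00000092341, chr19:5795690-5802672, minus strand) ranged from 6.14 to 13.35 in oocytes, with a median of 9.76, and from 10.57 to 15.16 in granulosa cells, with a median of 13.32. The mean was 10.14 ± 2.23 (SD, n = 15) in oocytes and 13.30 ± 0.90 (SD, n = 39) in granulosa cells, a difference of -3.16. The 2 groups overlapped mainly through the primary follicle oocytes, which at 11.48 to 13.35 lay within the range of the granulosa cells. The secondary-to-antral oocytes lay at 6.14 to 10.86, and 1 granulosa cell at 10.57 lay below the highest of them. Relative to all protein-coding reads, the summed Malat1 reads came to 2191 RPM (95% Poisson interval 2169 to 2214) in oocytes and 11856 RPM (11812 to 11900) in granulosa cells. These intervals cover counting error only.

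The Malat1 difference depended on follicle stage and on the scale. Against all granulosa cells it was -0.98 for the primary follicle oocytes and -4.61 for the secondary-to-antral oocytes. Per 1000 ERCC reads, Malat1 had a median of 47.7 reads (5.00 to 167) in oocytes and 35.3 reads (2.81 to 128) in granulosa cells, and the difference of log2 means turned to 0.49. Over the 4 granulosa cell pools the mean log2 (RPM+1) of Malat1 was 12.54, 13.18, 13.46 and 14.09, all above the pool of secondary-to-antral oocytes at 8.69. In the libraries without DRaqL the levels were lower in all groups, at 8.56 ± 1.06 (SD, n = 7) in primary follicle oocytes, 6.19 ± 1.90 (SD, n = 11) in secondary-to-antral oocytes and 10.12 ± 1.48 (SD, n = 34) in granulosa cells. In formalin-fixed sections, Malat1 was 11.95 ± 0.55 (SD, n = 5), 9.10 ± 1.50 (SD, n = 7) and 11.94 ± 0.76 (SD, n = 24). Primary follicle oocytes thus lay at the mean of the granulosa cells in that set, and below it in the other 2 sets.

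Meg3 (ENSMUSG00000021268, chr12:109541001-109571726, plus strand) was a low-level marker whose groups overlapped. It ranged from 0 to 4.86 in oocytes with a median of 2.09, and from 0 to 9.18 in granulosa cells with a median of 6.46. The means were 2.08 ± 1.98 (SD, n = 15) and 5.61 ± 2.62 (SD, n = 39), a difference of -3.53. It had a read in 9 of 15 oocytes (60%, Clopper-Pearson interval 32.3% to 83.7%) and in 35 of 39 granulosa cells (89.7%, 75.8% to 97.1%). Summed over cells it came to 7.14 RPM (5.90 to 8.56) in oocytes and 112 RPM (107 to 116) in granulosa cells. The difference was -4.78 without DRaqL and -3.03 in formalin-fixed sections, and -1.12 after scaling to spike-in reads. Per 1000 ERCC reads, Meg3 had a median of 0.160 reads (0 to 4.53) in oocytes and 0.265 reads (0 to 1.90) in granulosa cells, whereas the means, 0.894 and 0.419, had the opposite order. Among the oocytes, the primary follicle cells averaged 1.36 and the secondary-to-antral cells 2.56, an order opposite to that of Malat1. The 2 stages averaged 2.41 and 2.69 without DRaqL, and 3.64 and 3.24 in formalin-fixed sections, where the order was that of Malat1.

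**Figure D3:**
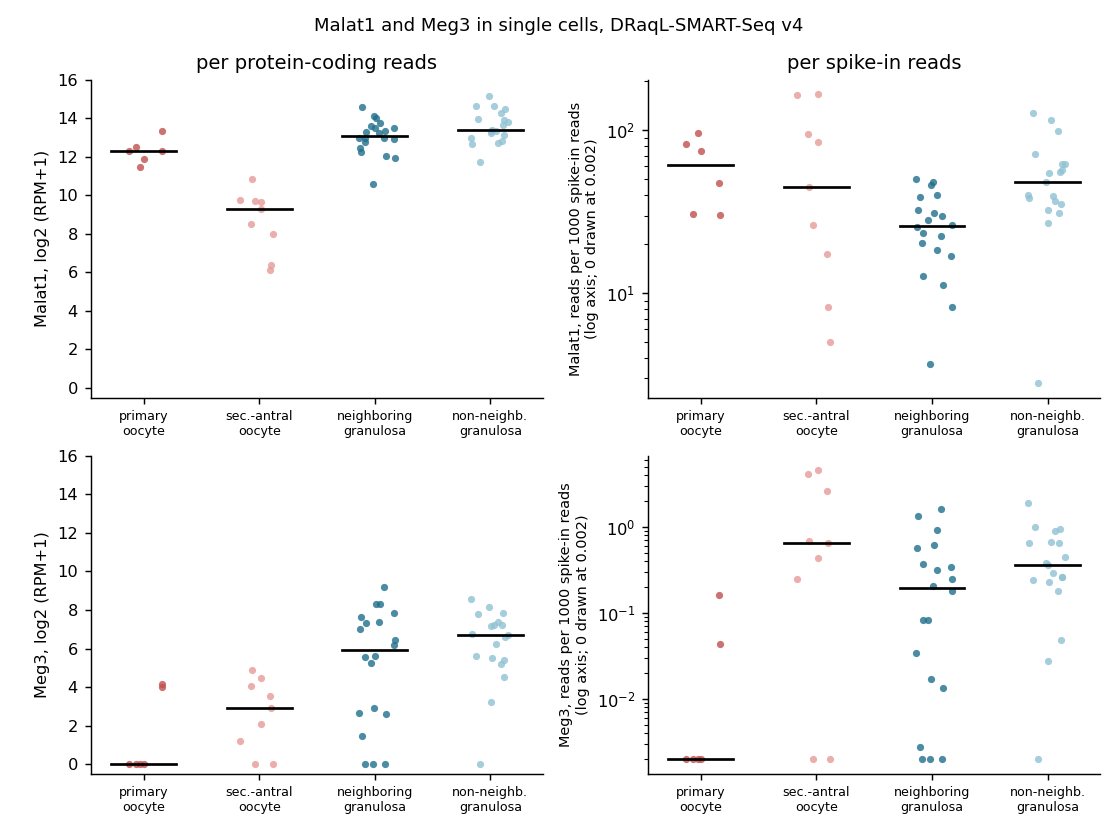
Malat1 (top) and Meg3 (bottom) in single cells of the DRaqL-SMART-Seq v4 libraries, as log2 (RPM+1) (left) and as reads per 1000 ERCC spike-in reads on a log axis (right, cells without a read drawn at 0.002). Points are cells and bars medians. Malat1 on the left is 6.14 to 10.86 in the secondary-to-antral oocytes and 10.57 to 15.16 in granulosa cells, whereas on the right the oocytes, at 5.00 to 167, overlap the granulosa cells, at 2.81 to 128.

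Among rows with a mean of at least 4 in a group, the 10 with the largest difference in the oocyte direction ranged from 7.44 to 5.81. Arhgap20os (ENSMUSG00000074354, chr9:51832814-51875886, minus strand), the antisense transcript of Arhgap20, led them. It lay between 7.54 and 8.93 in oocytes with a median of 8.17, and between 0 and 8.54 in granulosa cells with a median of 0. It was read in 15 of 15 oocytes and in 8 of 39 granulosa cells (20.5%, 9.30% to 36.5%), and the highest of these overlapped the oocytes. Summed reads came to 300.0 RPM (292 to 309) and 7.31 RPM (6.26 to 8.48), a ratio of 41.1. It varied little between stages, at 8.09 in primary and 8.24 in secondary-to-antral follicles, and its mean was 1.28 in neighboring and 0.17 in non-neighboring granulosa cells. Arhgap20 itself was higher in oocytes by 3.52, and the strand setting of the counting is not given in the sources used here, so that reads of the overlapping exons cannot be told apart.

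AY512915 (ENSMUSG00000068180, chr6:95255726-95333993, minus strand), listed as antisense in the table and as a lincRNA in GENCODE M21, followed a similar pattern. It overlaps an exon of Gm10234 on the other strand, where reads cannot be told apart. Gm10234 had 1 read in oocytes and 0 in granulosa cells. AY512915 lay between 6.56 and 8.76 in oocytes with a median of 7.60, and between 0 and 6.64 in granulosa cells with a median of 0, a difference of 6.88. The lincRNA D030018L15Rik lay between 4.55 and 7.72 in oocytes with a median of 6.62, and was read in 3 of 39 granulosa cells, with a maximum of 5.38 and a difference of 6.32. For both, only the highest granulosa cell reached the lowest oocyte. The lincRNA WI1-2285D16.1 lay between 0 and 8.19 in oocytes with a median of 6.74, and had a read in 2 of 39 granulosa cells, the higher at 6.32. It averaged 4.22 in primary and 7.35 in secondary-to-antral follicles.

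Gm11985 (ENSMUSG00000087512, chr11:7183153-7188569, minus strand), listed as antisense in the table and as protein-coding in GENCODE M21, had no read in any of the 39 granulosa cells. It lay between 3.05 and 9.09 in oocytes with a median of 5.88, and the groups did not overlap. Against a floor of 3 reads over all granulosa cells, its summed level was at least 1456-fold higher in oocytes. It averaged 8.68 in primary follicles and 4.60 in secondary-to-antral follicles. Its difference was 6.24, against 6.51 without DRaqL and 5.60 in formalin-fixed sections.

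Dppa3-ps (ENSMUSG00000080241, chrX:37625647-37626097, minus strand) is a processed copy of Dppa3, a maternal-effect gene that protects DNA methylation in the zygote. It lay between 6.38 and 8.88 in oocytes with a median of 7.83, and between 0 and 6.72 in granulosa cells with a median of 0. The difference of 7.18 was below that of Dppa3 itself, at 9.11. The copy also lies inside Rhox3g on the same strand, outside its exons, and Rhox3g was higher in oocytes by 7.63. Over its 451 bases the copy was 98.2% identical to the Dppa3 transcript, with 8 mismatches. The first 150 bases are printed from the GRCm38 annotation, with capitals at the 2 bases that differ from Dppa3. They are the 5′ end of the copy, and the rest of the 8 mismatches lie nearer the 3′ end, from which the libraries read.
Dppa3-ps, positions 1 to 150: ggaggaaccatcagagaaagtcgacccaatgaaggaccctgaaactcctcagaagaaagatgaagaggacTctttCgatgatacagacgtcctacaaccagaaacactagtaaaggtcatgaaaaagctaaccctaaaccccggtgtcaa

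Several other members higher in oocytes lie inside coding genes that were higher in oocytes as well. Gm25196, an miRNA row in an intron of Nlrp5, a maternal-effect gene of the oocyte cortex, lay between 3.55 and 8.46 in oocytes and between 0 and 5.73 in granulosa cells, a difference of 6.37. Its reads came to 23.7% of those counted on Nlrp5, whose difference was 7.91. Gm22661, a snoRNA row inside Zbed3, carried reads equal to 98.9% of those of Zbed3, and the differences were 6.03 and 5.76. Its level was 6.79 in primary and 11.92 in secondary-to-antral oocytes. Gm12207, over Skp1a, a subunit of SCF ubiquitin ligases, had a difference of 5.86 against 2.95 for Skp1a, and its reads came to 24.3% of the host's. A list of gonadal and germ cell genes had 9 rows above the filter, of which 1, Nlrp5-ps, was past the fold in the oocyte direction and 1, Foxl2os, in the granulosa direction, where 11% and 3.53% of all noncoding rows above the filter were. Nlrp5-ps ranged from 4.62 to 7.26 in oocytes, with a median of 6.35, and from 0 to 6.87 in granulosa cells, with a median of 0. It was read in 10 of 39 granulosa cells, and its difference was 5.47.

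In 11 rows (0.132% of those above the filter, against 0.256% of the coding rows) every oocyte was above every granulosa cell. These were chosen after their values were seen. They held Gm11985, Gm15620, Gm1821, Gm6083, Gm6798, Gm13181, Gm20997, Tes3-ps, Xlr4e-ps, 9430021M05Rik and WI1-1010L24.1. Gm6083 and Gm6798 matched Dppa5a, a gene of pluripotent and germ cells, at 96.9% and 95.8%, and their differences of 4.95 and 5.65 stood beside 8.38 for Dppa5a. Gm13181 matched Parl, a mitochondrial protease, with differences of 5.25 and 5.37. WI1-1010L24.1 had no read in granulosa cells and lay between 1.65 and 6.84 in oocytes.

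**Figure D4:**
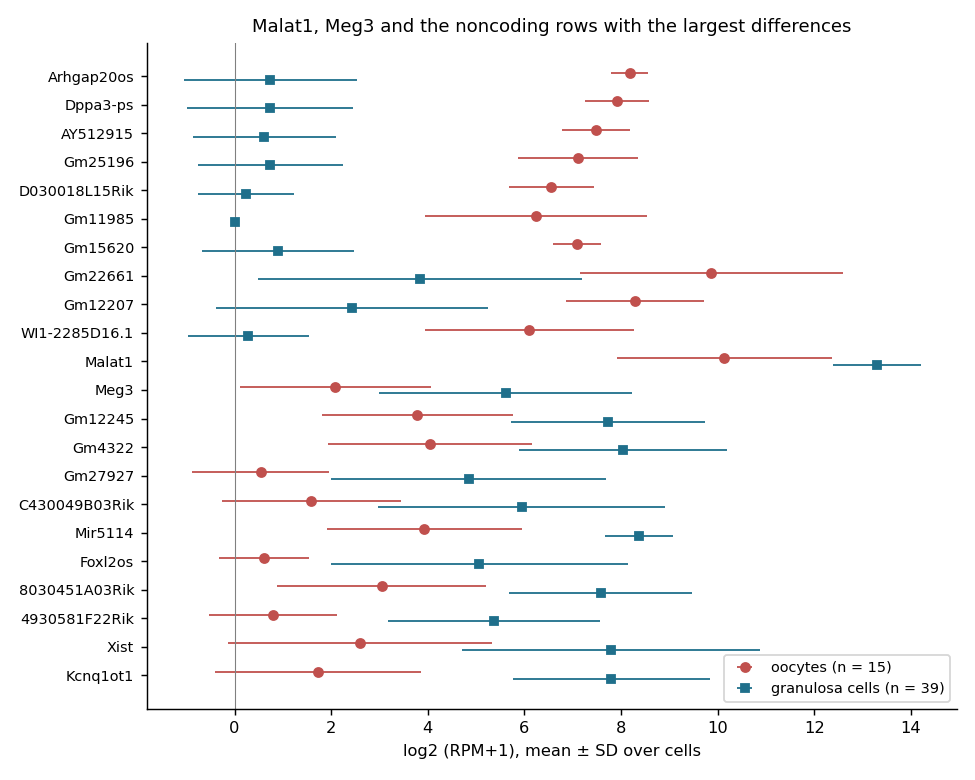
Mean log2 (RPM+1) ± SD over cells of Malat1, Meg3 and the 10 noncoding rows with the largest difference in each direction, in 15 oocytes (circles) and 39 granulosa cells (squares). Arhgap20os is at the top with a difference of 7.44 and Kcnq1ot1 at the bottom with -6.07, and the bars of the rows higher in granulosa cells are wide in both groups for most rows.

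The 10 rows with the largest difference in the granulosa direction ranged from -6.07 to -3.95. Kcnq1ot1 (ENSMUSG00000101609, chr7:143203458-143296549, minus strand), the imprinted antisense transcript of the potassium channel gene Kcnq1, led them. It lay between 0 and 6.82 in oocytes with a median of 1.08, and between 0 and 10.63 in granulosa cells with a median of 8.23. It had a read in 9 of 15 oocytes and in 38 of 39 granulosa cells, and the groups overlapped. Summed reads came to 5.17 RPM (4.12 to 6.40) in oocytes and 365 RPM (358 to 373) in granulosa cells, a ratio of 70.7. Kcnq1 on the other strand went the other way, higher in oocytes by 2.20. The Kcnq1ot1 difference was -2.66 without DRaqL and -4.07 in formalin-fixed sections.

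Airn, the imprinted antisense transcript of the growth factor receptor gene Igf2r, formed a similar pair. It lay between 0 and 6.58 in oocytes with a median of 2.67, and between 0 and 8.54 in granulosa cells with a median of 5.64, a difference of -2.49. Igf2r was higher in oocytes by 2.16. Airn came to -0.50 without DRaqL and to 0.89 after scaling to spike-in reads, so its direction depended on the scale.

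Xist (ENSMUSG00000086503, chrX:103460366-103483254, minus strand), the RNA that coats the inactive X chromosome of female somatic cells, had the second largest difference. It lay between 0 and 7.68 in oocytes with a median of 1.39, and between 0 and 11.28 in granulosa cells with a median of 9.03, a difference of -5.19. It was read in 10 of 15 oocytes and 37 of 39 granulosa cells. The neighboring granulosa cells averaged 6.61 and the non-neighboring cells 9.04. Gm27927, a short row within Xist whose reads came to 16.4% of those of Xist, had a difference of -4.31. The Xist difference was -4.35 without DRaqL and -4.24 in formalin-fixed sections.

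Foxl2os (ENSMUSG00000097072, chr9:98949781-98955299, minus strand) lies on the other strand and overlaps Foxl2, the transcription factor that maintains granulosa cell identity. It lay between 0 and 2.67 in oocytes with a median of 0, and between 0 and 10.18 in granulosa cells with a median of 5.89. It was read in 6 of 15 oocytes and in 32 of 39 granulosa cells, with 14 and 3199 reads, and the difference was -4.46, beside -2.69 for Foxl2. The Foxl2os difference was smaller in the other sets, at -2.12 without DRaqL and -1.70 in formalin-fixed sections. That of Foxl2 was -1.56 without DRaqL and turned to 0.50 in formalin-fixed sections. Foxl2os overlaps an exon of Foxl2, and reads of the overlap cannot be told apart.

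4930581F22Rik and 8030451A03Rik both overlap a coding gene on the other strand. The former, over St3gal4, a sialyltransferase gene, lay between 0 and 4.34 in oocytes and between 0 and 8.29 in granulosa cells, and its difference of -4.57 stood beside -4.61 for St3gal4. The latter, over Tnc, the gene of the matrix protein tenascin C, lay between 0 and 5.51 in oocytes and between 2.17 and 10.98 in granulosa cells, and its difference of -4.53 stood beside -0.74 for Tnc. The differences were thus alike in the first pair and unlike in the second, and in both the groups overlapped. Each row overlaps an exon of its coding gene, and without the strand setting reads of the overlap cannot be told apart.

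Reads on 3 miRNA rows higher in granulosa cells are given with the mature miRNAs that name them, which share no seed. The mature sequences are from RefSeq on GRCm38.p6, with the seed, bases 2 to 8, in capitals.
mmu-miR-5114: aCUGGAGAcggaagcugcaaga
mmu-miR-351-5p: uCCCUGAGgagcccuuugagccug
mmu-miR-503-5p: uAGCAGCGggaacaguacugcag

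Mir5114 lies wholly within an exon of Scd2, a fatty acid desaturase gene. It lay between 0 and 7.08 in oocytes with a median of 4.02, and between 6.83 and 10.03 in granulosa cells with a median of 8.43, a difference of -4.45 beside -4.44 for Scd2. Only the highest oocyte reached the lowest granulosa cell. Its reads came to 99.1% of those of Scd2 and were equal to them in 38 of the 52 cells in which either had a read. Mir351 and Mir503 lie beside C430049B03Rik (chrX:53055046-53057190, minus strand), a noncoding transcript upstream of them. C430049B03Rik lay between 0 and 5.24 in oocytes with a median of 1.25, and between 0 and 9.44 in granulosa cells with a median of 7.12, a difference of -4.35. It averaged 4.84 in neighboring and 7.10 in non-neighboring granulosa cells. Mir351, Mir503 and the lincRNA Gm28730 of the same run had differences of -3.82, -3.16 and -3.67.

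The last 2 of the 10 were Gm4322 and Gm12245, processed pseudogenes that both matched Bex4, a small gene of the X chromosome, at 99.3% and 98.9%. Their differences were -3.99 and -3.95, and that of Bex4 was -4.29. Gm4322 lay between 0 and 6.80 in oocytes with a median of 4.55, and between 0 and 9.94 in granulosa cells with a median of 8.73.

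In 9 rows (0.108% of those above the filter, against 0.0187% of the coding rows) every granulosa cell was above every oocyte, and all 9 were processed pseudogenes with a ribosomal protein gene as parent. These rows were chosen after their values were seen. Gm16020, Gm12943, Gm13192, Gm3511 and RP23-60D3.3 matched Rps28, and Gm3508, Rps15a-ps2 and Rps29-ps matched Rps3a1, Rps15a and Rps29. Gm16020 lay between 3.79 and 7.39 in oocytes with a median of 5.52, and between 7.64 and 9.40 in granulosa cells with a median of 8.70. Its difference of -2.97 stood beside -2.37 for Rps28, and that of Gm3508, the largest of the 8 rows named here, was -3.19. The 5 copies of Rps28 share sequence and are not separate measurements.

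The lists of known noncoding genes were chosen with earlier results of these data known. Of 18 nuclear long noncoding RNAs above the filter, 6 were higher in granulosa cells (Kcnq1ot1, Xist, Mir99ahg, Malat1, Dleu2 and Ftx) and 1, Mir22hg, was higher in oocytes, where 3.53% and 11% of all noncoding rows above the filter were. The median difference of the list was -1.16, against -0.06 over all noncoding rows above the filter. That background depends on level. Among the 1813 noncoding rows with a mean of at least 4 in a group, 393 were higher in oocytes and 237 in granulosa cells, with a median of -0.40. This list and the imprinted and snoRNA host lists below were not matched for level. Neat1, the scaffold of paraspeckles, had a mean of 0.40 in oocytes and 1.57 in granulosa cells, and Tug1 had 3.25 and 3.19, so neither was past the fold. Pvt1, the neighbor of Myc, had means of 4.38 and 5.06, with 1.98 in primary and 5.97 in secondary-to-antral oocytes, and its difference of -0.68 was 1.96 without DRaqL and 2.69 with spike-in scaling.

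Of 11 imprinted long noncoding RNAs above the filter, 5 were higher in granulosa cells (Kcnq1ot1, Xist, Meg3, Airn and Nespas) and 0 in oocytes, where the shares of all noncoding rows were 3.53% and 11%. The median difference was -1.16, against -0.06 over all of them. Airn changed its direction with spike-in scaling, as given above. Meg3 is known as maternally expressed, and Kcnq1ot1, Airn and Nespas as paternally expressed. Rian, which lies in the Meg3 cluster, had a mean of 0.65 in oocytes and 1.81 in granulosa cells, and H19 was read in 1 oocyte and 1 granulosa cell.

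The 14 host genes of snoRNAs, whose introns carry small nucleolar RNAs that guide rRNA modification, had 4 members higher in granulosa cells and 0 higher in oocytes, where the shares of all noncoding rows were 3.53% and 11%. The median difference was -1.61, against -0.06 over all of them. Gas5 lay between 2.08 and 6.99 in oocytes with a median of 5.93, and between 6.08 and 9.19 in granulosa cells with a median of 8.15. Its difference was -2.45, and the groups overlapped narrowly. Snhg8, Dancr and Snhg20 had differences of -2.90, -3.31 and -2.02, whereas Snhg5 and Snhg6 had 0.30 and 0.46. After scaling to spike-in reads Gas5 was higher in oocytes by 1.15, and without DRaqL Snhg8 came to 0.19.

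Of 388 structural and small RNA rows above the filter, 50 (12.9%) were higher in oocytes and 21 (5.41%) in granulosa cells, with a median of -0.07. These shares were near the 11% and 3.53% of all noncoding rows above the filter, whose median was -0.06. The mitochondrial rRNAs did not pass the fold, and the differences of mt-Rnr2 and mt-Rnr1, -0.96 and -0.71, became 2.68 and 2.94 with spike-in scaling, and that of mt-Rnr1 0.15 without DRaqL. mt-Rnr2 lay between 12.50 and 14.79 in oocytes, with a median of 13, and between 13.63 and 15.26 in granulosa cells, with a median of 14.37. It averaged 14.26 in primary and 12.81 in secondary-to-antral oocytes. Among gonadal genes, Wt1os and Emx2os had means of 1.95 and 0.84 in oocytes and 3.13 and 0.86 in granulosa cells.

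The rows with the most reads were mostly shared between the cell types. Reads came from 3′ ends and were not divided by length, so these are read numbers and not an order of transcript levels. Yam1, which the annotation also names Gm42418 and RefSeq lists under an 18S rRNA entry, had means of 14.12 ± 0.96 (SD, n = 15) in oocytes and 13.94 ± 0.34 (SD, n = 39) in granulosa cells. It averaged 14.89 in primary and 13.60 in secondary-to-antral oocytes, on either side of the granulosa cells. The Yam1 difference of 0.17 was -2.23 without DRaqL, -0.52 in formalin-fixed sections and 3.82 with spike-in scaling, so it depended on the libraries and the scale. The miRNA row mmu-mir-3084-1, in an intron of Cbwd1, was the least variable of the 16 members with a mean of at least 10 in both groups. It lay between 12.96 and 13.40 in oocytes and between 13.14 and 13.98 in granulosa cells, with an SD of 0.21 over the 54 cells. The smallest SD among the coding rows of the same level was 0.36. The row mmu-mir-3084-1 held 404272 reads, against 865 on Cbwd1, and was above Cbwd1 in all 54 cells. The origin of its reads was not tested. Gm28437, Gm28661 and Gm29216 were 100%, 100% and 99.8% identical to the mitochondrial genes mt-Co3, mt-Co2 and mt-Co1, and their differences of -1.32, -1.48 and -1.42 stood beside -1.32, -1.44 and -1.23 for those genes. With spike-in scaling the differences of these 3 rows turned to 2.32, 2.17 and 2.23. Gm1821, a copy of the ubiquitin gene Ubb at 98.5% identity, lay between 11.99 and 12.99 in oocytes and between 9.16 and 11.53 in granulosa cells, without overlap, and Ubb was higher in oocytes by 2.06.

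Processed pseudogenes mostly went the way of their parents. Of 2874 rows above the filter, 2523 had a parent found by sequence, at a median identity of 95.4%, and 391 of them were at least 99% identical. Of 262 such rows past the fold in the oocyte direction, the parent had the same direction in 239 and was itself past the fold in 184. Of 154 rows past the fold in the granulosa direction, these numbers were 151 and 59. Among the rows with a ribosomal protein parent, 106 were higher in granulosa cells, all with a parent in the same direction, and 10 were higher in oocytes, of which 0 had a parent in the same direction. Spearman's correlation between the differences of pseudogenes and parents was 0.76 across genes, which are not independent replicates and share reads and parents. Reads of near-identical copies cannot be told apart here.

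**Figure D5:**
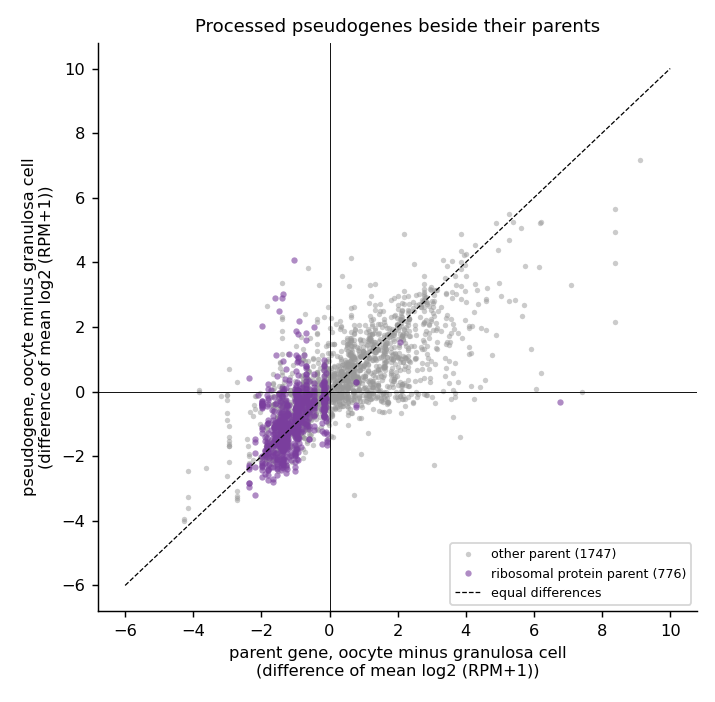
Difference of mean log2 (RPM+1), oocyte minus granulosa cell, of 2523 processed pseudogenes (vertical axis) against that of the parent gene found by sequence (horizontal axis). Each point is a pseudogene, colored where the parent is a ribosomal protein gene (776 rows), and the dashed line marks equal differences. The colored points lie mostly below and to the left of 0, with a median of -0.99, and 10 of them are past the fold in the oocyte direction.

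The 2 oocyte stages differed from each other in many noncoding rows. Of 4450 rows above the filter in oocytes, 722 (16.2%) were higher in secondary-to-antral follicles by more than 1.8 and 514 (11.6%) were higher in primary follicles. Every cell of the later stage was above every cell of the earlier stage in 262 rows (5.89%), and the reverse held in 446 rows (10%), of which 334 were processed pseudogenes. Among the coding rows, 20.8% and 9.7% were past the fold in the same directions and 7.17% and 4.53% were without overlap. Each stage is 1 library pool, as stated above.

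The rows of the stage comparison that are named here were chosen after their values were seen. The lincRNA RP23-423J10.4 lay between 0 and 4.39 in primary follicle oocytes with a median of 0.47, and between 8.69 and 9.98 in secondary-to-antral oocytes with a median of 9.62. The difference was 8.30, and 8.37 without DRaqL and 3.23 in formalin-fixed sections. Gm1965 lay between 0 and 0.69 and between 7.59 and 9.19 in the 2 stages, a difference of 8.26. AU016765 had no read in primary follicle oocytes and lay between 5.18 and 8.33 in the later ones. These rows separated the stages completely, and their median in granulosa cells was 0.

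In the other direction, Gm12428 lay between 10.92 and 12.21 in primary follicle oocytes with a median of 11.59, and between 5.26 and 6.54 in secondary-to-antral oocytes with a median of 5.71. Its difference was -5.74, and -1.57 without DRaqL and -4.17 in formalin-fixed sections. It matched Ywhah, a 14-3-3 protein gene, at 98.1%, and Ywhah itself went the opposite way, from 3.99 to 6.37. Gm14736 was at 0 in all secondary-to-antral oocytes and granulosa cells and lay between 0 and 7.98 in primary follicle oocytes, with a median of 7.13, and its difference of -5.98 was -6.58 without DRaqL and -0.45 in formalin-fixed sections. E330020D12Rik lay between 7.18 and 9.23 in primary and between 0 and 6.16 in secondary-to-antral oocytes, with medians of 8.34 and 2.68, and its difference of -5.47 came to -2.15 without DRaqL and -0.31 in formalin-fixed sections.

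Between the 2 positions of granulosa cells few noncoding rows differed. Of 7488 rows above the filter, 34 (0.454%) were higher in neighboring and 46 (0.614%) were higher in non-neighboring cells, and in 0 rows were the groups without overlap. With the differences taken within each of the 4 library pools and averaged, these numbers were 39 and 47. Among the coding rows 1.91% and 3.34% were past the fold. Neighboring cells include the 5 cells with oocyte markers named above, and left out of the comparison of cell types these cells changed the counts to 947 higher in oocytes and 307 higher in granulosa cells.

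The other libraries kept the direction of most rows past the fold. Without DRaqL, 1378 (21.1%) of 6518 noncoding rows were higher in oocytes and 82 (1.26%) were higher in granulosa cells. In formalin-fixed sections these were 972 (13.1%) and 94 (1.26%) of 7443. Among the coding rows, 47.5% and 1.07% were past the fold without DRaqL and 28.7% and 2.98% in formalin-fixed sections. Of the 919 rows higher in oocytes with DRaqL, 863 were above the filter without DRaqL and 860 of these had the same direction. There, 710 were past the fold, which is 77.3% of the first list and 51.5% of the second. In formalin-fixed sections 566 were past the fold, or 61.6% and 58.2% of the lists. Of the 295 rows higher in granulosa cells, 69 were past the fold without DRaqL (23.4% and 84.1%) and 36 in formalin-fixed sections (12.2% and 38.3%), and 254 of 291 and 252 of 288 had the same direction. The sets were normalized separately and the oocyte stages made up different shares of each.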

How the data were processed

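The members and the gene lists were chosen with earlier results of these data known. The authors deposited unnormalized read counts for every gene, made with fastp 0.20.0, cutadapt 1.16, HISAT2 2.1.0 on GRCm38 and HTSeq 0.10.0, from the first read of each pair and including reads within 10 kb of annotated 3′ ends. Reads carried no molecular identifiers, so intervals and floors cover counting error only. A read that fits a pseudogene and its parent, or a small RNA and its host, may be counted on either.

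Each count was scaled to the protein-coding total of its library and expressed as log2 (RPM+1) with a pseudocount of 1. A row was past the fold at a difference of group means above 1.8 with at least 1 cell above 4, the size criteria of the study without its test over cells. In its results, the study states that the amplification methods it compared used sections from the same ovary. Intervals at 95% are exact Poisson for summed counts and Clopper-Pearson for shares of cells, and the floor for a group without reads was 3 counts. All columns of the table were matched to a sample label, and 0 columns of other samples were left out. Gene types and positions are from GENCODE M21. Parents of processed pseudogenes were the best match by blastn 2.17.0 among protein-coding transcripts, over at least 50% of the pseudogene.

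Genes were named by rule: Malat1, Meg3, the 10 largest differences in each direction among rows with a mean of at least 4 in a group, the 10 highest rows of each group, and up to 4 members of each list. Not all are printed, 1 row is not reported here, and other members of lists are given by value. The alternatives were other pseudocounts, folds and filters, scaling over all rows, by TMM (edgeR 4.0.16) or by ERCC reads, summed ratios, thinning, single stages or positions, leaving out each library pool, mixed granulosa cells or shallow oocytes, and the other libraries. The ERCC scaling of the counts of rows, the other libraries for those counts, the shallow oocytes, parents by sequence, the comparison of stages and that of positions within pools were chosen after seeing the data. Computations used python 3.11.15, numpy 2.4.6, pandas 2.3.3, scipy 1.17.1 and R 4.3.3, and were tested on simulated data.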

Additional observations from a re-analysis of the deposited data

Results flagged for a closer look

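In groups of 4 to 10 cells, the gap between the lowest or highest cell and the nearest other was compared with the whole range, for 60 groups of oocytes of 1 stage, of which chance singles out about 1 in 20. In 6 groups 1 cell stood apart. In primary follicle oocytes, the highest cell of Gm1965 was at 0.69 log2 (RPM+1) where the others were at 0, and the lowest cell of Gm14736 was at 0. With the other cells of Gm1965 at 0, any cell with a read would have stood apart. The stated rate does not apply to that row. Without DRaqL, the lowest primary follicle oocyte of Gm12428 was at 1.67. In formalin-fixed sections, the lowest primary follicle oocyte of E330020D12Rik was at 3.27, the lowest secondary-to-antral oocyte of E330020D12Rik was at 0, and the lowest secondary-to-antral oocyte of Pvt1 was at 0.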

How the results depend on the processing

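No paired analysis was possible because no library pool holds both cell types and the results come from no test. The number of rows higher in oocytes, 919 with the settings above, was 1847 with a pseudocount of 0.1, 180 with a pseudocount of 10, 393 with a mean of at least 4 required in a group, 1679 at a fold of 1, 307 at a fold of 3 and 4906 with spike-in scaling. The number higher in granulosa cells, 295, was 459 and 106 with those pseudocounts, 1286 with a ratio of summed counts, 947 and 40 at those folds, 590 without library pool 8 (secondary-to-antral oocytes only), 149 without library pool 7 (primary follicle oocytes only), 16 with spike-in scaling, 82 without DRaqL and 94 in formalin-fixed sections. The Malat1 difference of -3.16 was -4.61 without pool 8, -0.98 without pool 7, -1.65 in formalin-fixed sections and 0.49 with spike-in scaling. The difference in the share of reads, -7.79 percentage points, was -11.3 without pool 8 and -2.52 without pool 7. Among the other named rows past the fold, Gm4149, Airn, Gas5 and Mir682 turned under spike-in scaling, to 1.78, 0.89, 1.15 and 1.69, and Snhg8 turned to 0.19 without DRaqL. Of the 16 named rows not past the fold, 14 changed sign under spike-in scaling, 6 without DRaqL, 4 with primary follicle oocytes only and 2 each in formalin-fixed sections, with secondary-to-antral oocytes only and with TMM. Apart from Malat1 and Meg3, 750 of 882 values of named rows moved by less than the spread over cells. Spike-in scaling moved the median of all noncoding rows by 1.09, the libraries without DRaqL by 0.59, the formalin-fixed libraries by 0.24 and a ratio of summed counts by -0.61. The split of calls, 75.7% higher in oocytes, was 99.7% with spike-in scaling, 41.4% with a ratio of summed counts, 62.9% with a pseudocount of 10, 94.4% without DRaqL and 91.2% in formalin-fixed sections. The causes were not tested. After thinning to 1 depth the counts were 809 and 354, and each group stands for 1 sample.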

Other observations

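In the Gas5 run on chromosome 1, all 5 rows past the fold (Gas5, Mir5117, SNORD77, Snord47 and Gm25789) were higher in granulosa cells on the scale of protein-coding reads. Runs were formed only from neighboring rows past the fold, and 43 of the 47 runs had 1 direction. This run lies within Gas5 (chr1:161034422-161038539), so a read may be counted on the host or on a small RNA row. Snord47 carried reads equal to 20.7% of those of Gas5, with a difference of -2.65 beside -2.45 for Gas5.

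By position, the share past the fold was mostly near that of all noncoding rows above the filter, 11% in the oocyte direction and 3.53% in the granulosa direction. Rows inside or over a coding gene on their strand had 203 (11.4%) and 41 (2.29%) of 1788, and rows with no coding gene overlapping or within 10 kb before them had 488 (11.8%) and 172 (4.16%) of 4134. Rows overlapping a coding gene on the other strand had 154 (8.12%) and 61 (3.22%) of 1897, and rows within 10 kb after a coding gene on their strand had 42 (11.1%) and 17 (4.51%) of 377. The 150 rows absent from GENCODE M21 had 32 (21.3%) and 4 (2.67%).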
